A study of Mus musculus with 6 samples.

Results

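The matrix-binding integrins described here are 10 genes of the deposited count table, taken by symbol: the alpha chains Itga1, Itga2, Itga5, Itga7, Itga8, Itga9 and Itgav and the beta chains Itgb1, Itgb5 and Itgb6. They are receptors for collagen, fibronectin and laminin other than Itga3, Itga6 and Itgb4. All 10 were found among the 34590 symbols of the table and all 10 passed the filter on low counts.

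The libraries came from 3 host mice, numbered 1 to 3, whose inguinal fat pads (gland number 4) were given WT.EGFP+ epithelium as a graft at left and Adamts18-/-.EGFP+ epithelium in the contralateral gland at right. WT and Adamts18-/- donors both carried an EGFP transgene driven by an actin promoter on a C57BL/6JOlaHsd background, and the mutant allele lacks the exons for the catalytic site of this secreted protease. The stroma of both glands belonged to the same host, and the tissue came from 3 different donors, used in 3 independent experiments. Genotype and body side cannot be told apart, and it is not stated for these libraries how old the hosts were. For its Adamts18 grafts in general, the study describes young WT females whose own epithelium had been removed as hosts. The comparison of contralateral glands asks which transcripts differ when the epithelium lacks Adamts18, a protease of the extracellular matrix, and the values of the receptors for that matrix are given here.

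Integrins are cell surface receptors made of an alpha and a beta chain, which bind matrix outside the cell and, through talin, kindlin and other adaptors, the actin cytoskeleton inside it. The alpha chain largely sets the ligand: Itga1 and Itga2 encode collagen receptors, Itga7 a laminin receptor best known from muscle, Itga9 a receptor for tenascin C and other ligands, and Itga5, Itga8 and Itgav receptors for the RGD sequence of fibronectin, nephronectin and vitronectin. All of these alpha chains pair with the product of Itgb1, and Itgav also pairs with Itgb5 and with Itgb6, a largely epithelial chain whose receptor activates latent TGF-beta. In the mammary gland Itgb1 is known to be needed by the basal layer and its stem cells.

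Although the sample labels speak of GFP-positive epithelial cells taken by sorting, transcripts of other cells were abundant. Total counts lay between 53875123 and 71595924. The summed level of 25 genes expressed across epithelial cell types was 1417 to 2151 CPM (read counts scaled to a common library size, after TMM normalization) in WT glands and 1095 to 1540 CPM in Adamts18-/- glands, while 8 adipocyte genes summed to 6193 to 12704 and 4901 to 13335 CPM. Each of the 25 epithelial genes had a negative fitted log2 fold change (Adamts18-/- over WT), 5 of them past the thresholds used for the members, and 9 of 10 myoepithelial genes were lower past these thresholds. Over all genes tested, 49.8% had a negative value and 1.84% were lower past the thresholds. The part of this difference in the values of the integrins was not tested. The 15 skeletal muscle genes summed to 410.2, 1187 and 3805 CPM with WT epithelium in mice 1, 2 and 3 and to 14793, 15102 and 2603 CPM in their Adamts18-/- glands. B cell genes (7) summed to 151 and 723 CPM in the WT and Adamts18-/- gland of mouse 3 and to at most 18.5 CPM elsewhere. Adamts18 itself was at 3.61, 9.92 and 6.80 CPM with WT epithelium and at 2.75, 4.87 and 3.29 CPM in the Adamts18-/- glands of mice 1, 2 and 3, lower in 3 of 3 pairs. In such mixed material fewer cells of a type and less RNA per cell cannot be told apart.

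The members spanned a wide range of levels, and the order of their levels was the same at its ends in every gland. Levels of different genes are given as CPM per kilobase of exon, as means over the 6 glands with the SD. Itgb1 was the highest at 116 ± 9.34, and Itgb5 followed at 43.1 ± 4.87. Itga5 was the highest alpha chain among the members, at 21.3 ± 7.68. Itga7 (8.15 ± 1.83) and Itgav (8.13 ± 0.623) came next, with Itga7 above Itgav in 3 of 6 glands, so these neighbours did not differ beyond their spread. Itga9 was at 4.595 ± 0.560 and Itga8 at 2.90 ± 0.480. Itga1 (1.82 ± 0.419) was below Itga8 in 6 of 6 glands, although their ranges overlapped, and Itga2 was at 1.124 ± 0.119. Itgb6 was the lowest member at 0.254 ± 0.0967. Of the 17 other integrins, the one nearest to Itgb6 was Itgad, a leukocyte chain, at 0.187 ± 0.0955. With the median length of all annotated transcripts in place of the exon length, Itgb1 and Itgb5 stayed first and Itgb6 last, but Itga5 and Itga7 moved to the fifth and seventh place.

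**Figure D1:**
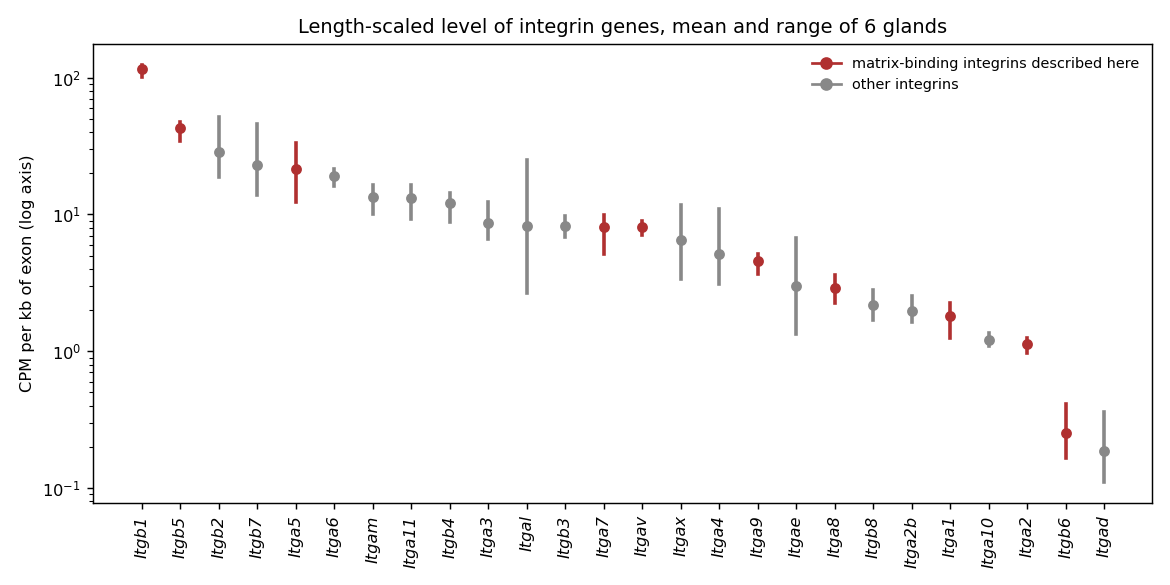
Level of each integrin gene, in CPM per kilobase of exon on a log axis, as the mean (point) and range (bar) of the 6 glands. Members are in red and other integrins in grey. Itgb1 (mean 116) lies above all others, and Itgb6 (mean 0.254) and Itgad (mean 0.187) lie at the lower end. Itgb2l, at 0 counts in some glands, is left out.

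Between the members at the top and the bottom of this order, upstream sequence could be compared. RefSeq promoters (GRCm38.p6) were matched for 9 of the 10 members, Itga7 being the exception. The 200 bases that end 50 bases before the annotated start are shown for Itgb1 (chr8:128685404-128685603, plus strand) and for the first of the annotated Itgb6 starts (chr2:60722654-60722853, minus strand), since these members differed most in level. Capitals mark CpG dinucleotides.
Itgb1: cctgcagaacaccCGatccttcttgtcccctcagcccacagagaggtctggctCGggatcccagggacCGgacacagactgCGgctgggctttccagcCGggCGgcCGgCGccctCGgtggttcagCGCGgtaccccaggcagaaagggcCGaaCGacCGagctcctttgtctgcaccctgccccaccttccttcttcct
Itgb6: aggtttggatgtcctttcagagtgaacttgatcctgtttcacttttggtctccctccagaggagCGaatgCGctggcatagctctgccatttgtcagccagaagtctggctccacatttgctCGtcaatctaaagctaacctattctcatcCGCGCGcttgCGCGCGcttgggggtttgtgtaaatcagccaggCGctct
The Itgb1 window held 14 CpG and 66.5% G and C, and 80.2% of the 32851 promoter windows of this length held fewer CpG. The Itgb6 window held 10 CpG and 52.0% G and C, and 70.7% of windows held fewer. The other matched members, by their annotated start, held 8 (Itga1 and Itga5) to 14 CpG (Itga8), and the other annotated start of Itgb6 held 3. The matched Itga9 window (chr9:118711442-118711641, plus strand) lies inside the gene as placed by GENCODE M21 (118606690 to 118901003), not upstream of it. The CpG count did not follow the order of levels, since Itga5, the highest alpha chain of the members by exon length, held fewer CpG than the first start of Itgb6. The letters GGGCGG, searched on both strands, occurred in the windows of Itgb1, Itga5 and Itgb5 and in 24.6% of all windows. CATTCC and TATAAA, also searched on both strands, occurred in none of the members' windows, against 10.7% and 9.14% of all windows.

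No member passed the thresholds for a difference between the genotypes. With the mouse as a block, which compares contralateral glands within a host, 0 of 10 members had a fold change under 0.8 with an unadjusted p under 0.05 (1.84% of 17345 tested genes did), and 0 had a fold change over the reciprocal of 0.8 with such a p (1.17%), so 0 of 10 passed in either direction (3.01%). None had an unadjusted p under 0.05 at any fold change (0 of 10 members, 3.86% of all genes) or an adjusted p under 0.05 (0 of 10 members, 0.0% of all genes; quasi-likelihood test of edgeR, p adjusted after Benjamini and Hochberg). DESeq2 (4.28% of all genes) and limma-voom (4.83%) also gave 0 members at an unadjusted p under 0.05. The fitted log2 fold change was negative in 8 of the 10 members (49.8% of all genes) and ranged from -0.22 to 0.18. Its median was -0.085, beside 0.00065 over all genes tested. For no member were all Adamts18-/- glands below all WT glands (2.63% of all genes) or all above them (2.31%).

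**Figure D2:**
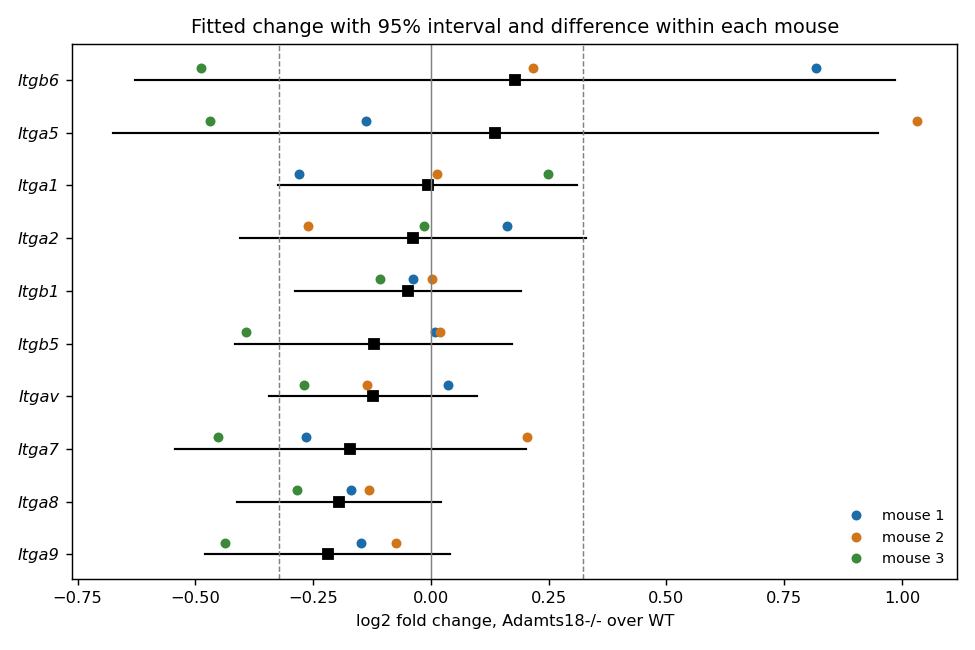
Fitted log2 fold change of each member, Adamts18-/- over WT (black square), with its 95% interval (line) and the difference within each mouse (coloured points). Dashed lines mark a fold change of 0.8 and its reciprocal. Each interval crosses 0, those of Itgb6 and Itga5 are the widest, and that of Itgb1 alone lies between the dashed lines.

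Both collagen receptors among the members had fitted differences near 0. Itga1 was at 37.3, 41.8 and 23.3 CPM with WT epithelium in mice 1, 2 and 3 and at 30.7, 42.2 and 27.7 CPM in their Adamts18-/- glands. Both glands of mouse 3 were the lowest, and the groups overlapped. Its log2 fold change was -0.0071 (95% interval -0.33 to 0.31), with differences of -0.28, 0.012 and 0.25 in mice 1, 2 and 3. Itga2, the collagen receptor best known from epithelia and platelets, was low and steady, at 6.92, 8.63 and 8.86 CPM with WT epithelium and at 7.74, 7.19 and 8.77 CPM in Adamts18-/- glands. Its log2 fold change was -0.039 (interval -0.41 to 0.33). These genes are neighbours on chromosome 13 of GRCm38 (GENCODE M21), both on the minus strand and 20995 bases apart, Itga2 at 114833081 to 114932100 and Itga1 at 114953096 to 115101964. Per kilobase of exon, Itga1 made up 10.99% ± 4.27 and Itga2 6.64% ± 1.41 of the sum of Itga1, Itga2, Itga10 and Itga11 (SD, 6 glands). Itga11 made up 75.2% ± 6.82. These shares hold for exon length only. The level of Itga1 was 1.82 by exon length, 3.09 by the longest transcript and 10.97 by median transcript length. That of Itga2 was 1.124, 1.13 and 2.11 by the same lengths. The exons of Itga1 share 3.68% of their bases with a gene on the same strand, Gm49395, that is not in the table, so a small part of its reads is uncertain. The log2 ratio of Itga2 to Itga1 within a gland changed by 0.44, -0.27 and -0.26 between the genotypes in mice 1, 2 and 3.

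Itga5, the alpha chain of the main fibronectin receptor, varied more than any other member, with a range of 1.45 in log2 CPM over the 6 glands. It was at 127, 80.5 and 83.6 CPM with WT epithelium and at 115, 165 and 60.4 CPM in the Adamts18-/- glands of mice 1, 2 and 3. The Adamts18-/- gland of mouse 2 was the highest of all and that of mouse 3 the lowest. The differences within mice were -0.14, 1.03 and -0.47 on the log2 scale, so 2 pairs had the lower value and 1 pair the higher value in the Adamts18-/- gland. The fitted log2 fold change was 0.14, with an interval from -0.68 to 0.95, which includes a 1.93-fold higher and a 0.626-fold level. Without mouse 2 it was -0.30 (unadjusted p = 0.0729, edgeR). Genes with the most similar profile over the 6 glands were Il11, Cdh19 and Shc4, whose centred log2 CPM differed from that of Itga5 by a root mean square of 0.13 each. Il11 was at or below 0.363 CPM. Genes of Schwann cells (8), a cell type in which Cdh19 is known, summed to 771, 542 and 535 CPM with WT epithelium and to 582, 701 and 328 CPM in Adamts18-/- glands. Fibroblast genes (8) summed to 7168, 4963 and 5132 CPM with WT epithelium and to 7396, 6498 and 3106 CPM in Adamts18-/- glands. The part of either cell type in the values of Itga5 was not tested.

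The other RGD-binding alpha chains moved less. Itga8, a receptor of mesenchymal and smooth muscle cells whose ligands include nephronectin, was at 21.8, 26.4 and 20.1 CPM with WT epithelium and at 19.4, 24.1 and 16.5 CPM in Adamts18-/- glands. It was lower in the Adamts18-/- gland of each of the 3 mice, by 0.17, 0.13 and 0.28 on the log2 scale, although the groups overlapped. Its log2 fold change was -0.20 (interval -0.41 to 0.021, unadjusted p = 0.0679, edgeR). Itgav, shared by several matrix receptors, was at 85.5, 96.0 and 91.7 CPM with WT epithelium and at 87.7, 87.4 and 76.1 CPM in Adamts18-/- glands, with a log2 fold change of -0.12 (interval -0.34 to 0.098). Per kilobase of exon, Itga5 made up 60.7% ± 7.55, Itgav 24.7% ± 5.37 and Itga8 8.71% ± 1.82 of the sum of Itga5, Itga8, Itgav and Itga2b (SD, 6 glands). These shares hold for the exon length, since by median transcript length Itgav (79.1) stood above Itga5 (42.5). The exons of Itga8 and Itgav share 5.05% and 5.90% of their bases with genes on the opposite strand, and strand-aware counting is not stated in the sources used here, so reads of these genes cannot be fully told apart from those of their antisense partners.

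Itga9 was at 36.1, 39.7 and 37.9 CPM with WT epithelium and at 32.6, 37.7 and 28.0 CPM in Adamts18-/- glands. With Itga8 it was one of the 2 members lower in the Adamts18-/- gland of each mouse (2 of 10 members, 12.7% of all genes), and 0 members were higher in each mouse (10.8% of all genes). Its log2 fold change was -0.22, the lowest of the members (interval -0.48 to 0.041, unadjusted p = 0.0821, edgeR), with the widest difference, -0.44, in mouse 3. When libraries were scaled by their size alone, both Itga8 and Itga9 had an unadjusted p under 0.05 (0.0453 and 0.0480, edgeR), without passing the fold change threshold. That is 2 of 10 members, beside 4.27% of all genes, whose median log2 fold change was -0.025 under this scaling.

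Itga7, the laminin receptor, was at 80.7, 69.4 and 56.9 CPM with WT epithelium and at 67.2, 80.0 and 41.6 CPM in the Adamts18-/- glands. Its differences within mice were -0.27, 0.20 and -0.45 on the log2 scale, and its log2 fold change was -0.17 (interval -0.54 to 0.20). Without mouse 2 it was -0.36 and passed the thresholds (unadjusted p = 0.0264, edgeR), the one setting in which a member did. Beside these values, the summed muscle genes given above were higher in the Adamts18-/- gland in mice 1 and 2 and lower in mouse 3, so Itga7 had the same direction as muscle in mice 2 and 3 and the opposite one in mouse 1. The part of muscle in the values of Itga7 was not tested. Its most similar profiles over the 6 glands were those of Cry2, Slc1a5 and Adig, with root mean square differences of 0.041, 0.045 and 0.046 in centred log2 CPM. Cry2 encodes a circadian clock repressor and Adig an adipocyte protein. Adipocyte genes (8) summed to 12704, 12560 and 6193 CPM with WT epithelium and to 10985, 13335 and 4901 CPM in Adamts18-/- glands. Their part in the values of Itga7 was not tested. Per kilobase of exon, Itga7 made up 22.6% ± 3.45 of the laminin-binding alpha chains, less than Itga6 at 53.4% ± 2.70 and close to Itga3 at 24.1% ± 3.06 (SD, 6 glands). The share of Itga7 depends on the length used, since its level was 16.4 by the longest transcript and 8.15 by exon length.

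Itgb1 was the steadiest of the beta chains. It was at 490.2, 505 and 442 CPM with WT epithelium and at 477, 505 and 410.3 CPM in Adamts18-/- glands, with differences of -0.038, 0.0016 and -0.11 on the log2 scale in mice 1, 2 and 3. Its log2 fold change was -0.048 (interval -0.29 to 0.19). In linear terms the interval ran from 0.819 to 1.14, and Itgb1 was the one member whose interval lay within both fold thresholds (1 of 10 members, 30.6% of all genes). Per kilobase of exon, Itgb1 stood slightly above the sum of the 12 alpha chains that can pair with it. The ratio was 1.17, 1.32 and 1.15 in the WT glands and 1.23, 1.17 and 1.24 in the Adamts18-/- glands, and the groups overlapped. This ratio depends on the lengths used, and its direction holds for exon length only. With the longest transcript, Itgb1 was at 124 against 116 by exon length, Itga7 at 16.4 against 8.15 and Itgav at 12.4 against 8.13. For Itga6, the longest transcript has 4310 bases and the exon length is 9025. By the longest and by the median transcript lengths, the alpha chains together came out above Itgb1.

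Of the other beta chains, Itgb5, a partner of Itgav in the vitronectin receptor, was at 168, 148 and 161 CPM with WT epithelium and at 169, 150.5 and 122 CPM in Adamts18-/- glands. The pairs of mice 1 and 2 differed by 0.0077 and 0.020 on the log2 scale and that of mouse 3 by -0.39, which gave a log2 fold change of -0.12 (interval -0.41 to 0.17). Itgb6 was detected at 72 to 164 reads per gland. It was at 1.19, 1.17 and 2.91 CPM with WT epithelium and at 2.12, 1.37 and 2.07 CPM in Adamts18-/- glands, where the level that a count of 0 allows was at most 0.0574 CPM (3 counts, counting error only). The WT gland of mouse 3 was the highest, and the log2 fold change was 0.18 with a wide interval from -0.63 to 0.99. Its most similar profiles were those of Pramef12, Wdr96 and Tmem25, with root mean square differences of 0.15, 0.16 and 0.18 in centred log2 CPM. Among the beta chains that can pair with Itgav, Itgb1 made up 68.3% ± 1.81, Itgb5 25.4% ± 1.82 and Itgb6 0.153% ± 0.0649 per kilobase of exon (SD, 6 glands). By median transcript length, Itgb1 (261) and Itgb5 (243) lay closer together.

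**Figure D3:**
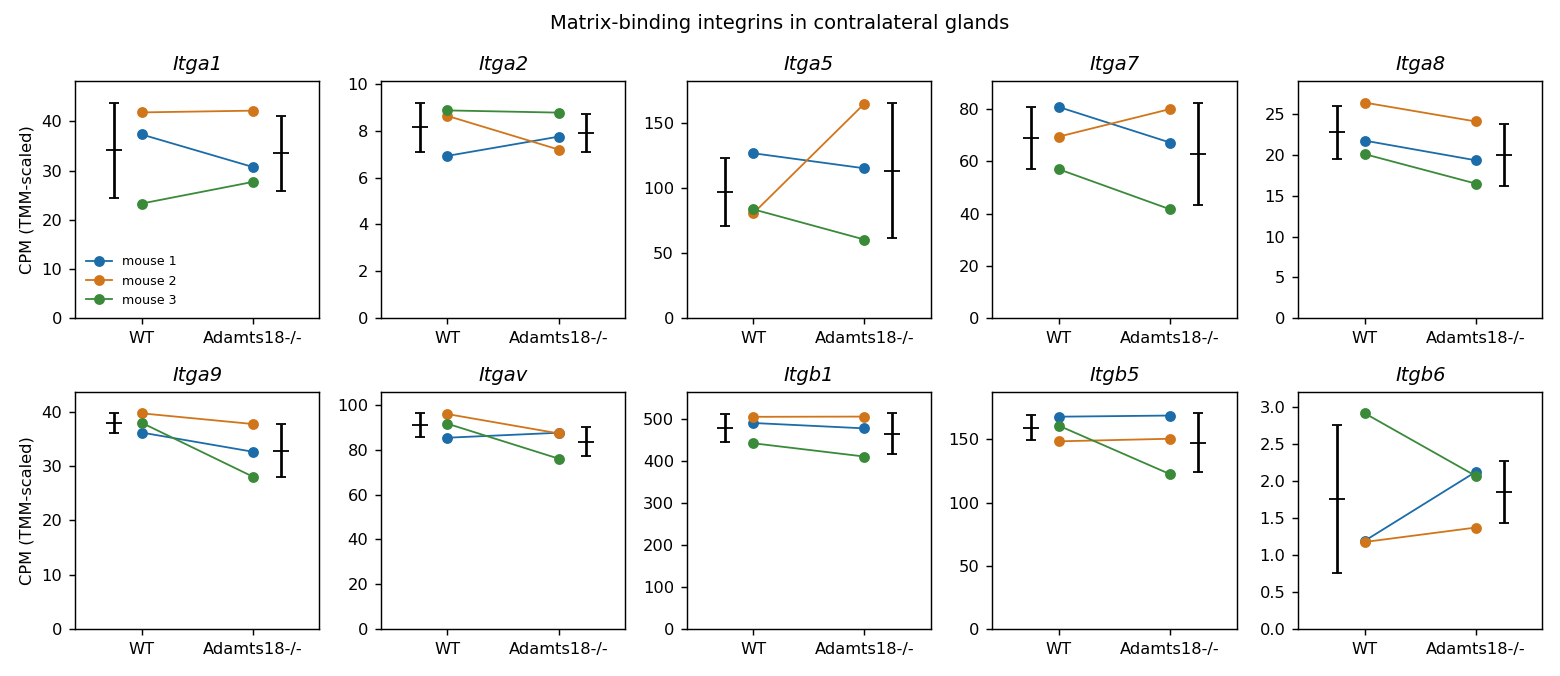
CPM of the 10 members in the WT and Adamts18-/- gland of each mouse, on axes that start at 0. Lines join the contralateral glands of a mouse, and bars beside them show the group mean with its SD (n = 3). Lines run in different directions in different mice for most members, fall in all 3 mice for Itga8 and Itga9, and are steepest for Itga5 in mouse 2 (80.5 to 165 CPM).

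A ratio of 2 genes within a gland does not depend on how libraries are scaled. Of 6 such ratios, 0 changed in the same direction in all 3 mice. The log2 ratio of Itgb5 to Itgav changed least, by -0.029, 0.16 and -0.12 in mice 1, 2 and 3. That of Itga5 to Itgb1 changed by -0.10, 1.03 and -0.36, and that of Itgb6 to Itgav by 0.78, 0.35 and -0.22. In the exact sign-flip permutation test (two-sided) the p of the 6 ratios lay between 0.5 and 1, with an adjusted p of 1 for each, in a design whose smallest p is 0.25.

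The mice could be compared with each other as well, but host, donor and experiment cannot be told apart in this comparison. The study describes its 3 pairs of glands as independent experiments whose donors differed. For the mouse term of the same edgeR quasi-likelihood fit, 3 of 10 members had an unadjusted p under 0.05 (27.2% of all genes). The members were Itga1 (unadjusted p = 0.0151, edgeR), Itga8 (unadjusted p = 0.0164, edgeR) and Itga7 (unadjusted p = 0.0331, edgeR). Of the members, 0 of 10 had an adjusted p under 0.05 (0.628% of all genes; the lowest was 0.111). By DESeq2, 2 of 10 members, Itga1 and Itga7, had an adjusted p under 0.05 between mice, beside 19.1% of all genes. These shares of the members are near those over all genes. Relative to mouse 1, mouse 3 was lower by 0.42 for Itga1, by 0.59 for Itga7 and by 0.17 for Itga8 in the fitted log2 values, and mouse 2 was higher by 0.30 for Itga1 and for Itga8. For Itga1, Itga7 and Itgb1, both glands of mouse 3 lay below all glands of mice 1 and 2 (3 of 10 members, 24.1% of all genes). Pericyte genes (8) summed to 934, 955 and 604 CPM with WT epithelium and to 820, 1025 and 501 CPM in Adamts18-/- glands of mice 1, 2 and 3. Endothelial genes (8) summed to 937, 1003 and 680 CPM and to 812, 1015 and 582 CPM. In both lists the glands of mouse 3 were thus the lowest. None of these genes was at 0 in any gland. Their part in the values of the integrins was not tested. Over the 6 glands, the profile of Itga1 was most like those of Rnf125, Cacna1c, a calcium channel gene of smooth muscle and heart, and Chst15, with root mean square differences of 0.046, 0.067 and 0.072 in centred log2 CPM.

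**Figure D4:**
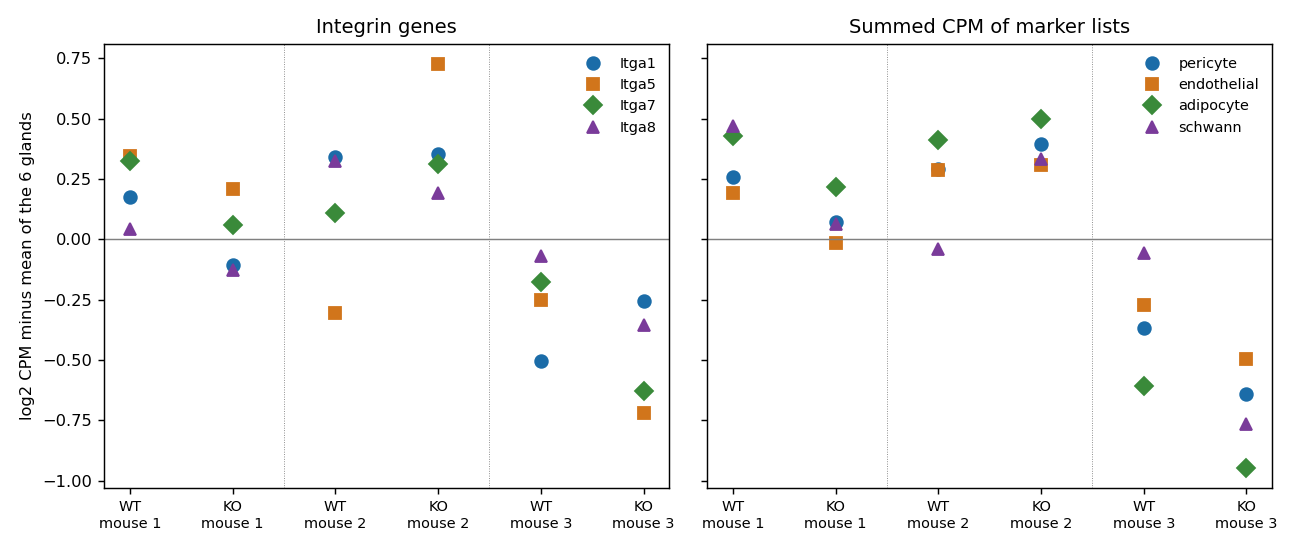
log2 CPM in each gland minus the mean of the 6 glands, for Itga1, Itga5, Itga7 and Itga8 (left) and for the summed CPM of pericyte, endothelial, adipocyte and Schwann cell genes (right), with Adamts18-/- glands labelled KO. The Adamts18-/- gland of mouse 3 is the lowest for Itga5, Itga7 and Itga8 and for each of the 4 lists.

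Of 73 tested genes of integrin adhesion other than the members, taken from lists of symbols, 3 passed the thresholds, beside 3.01% of all genes. Of the 16 other integrins tested, Itga3, a laminin receptor chain, was lower (log2 fold change -0.42, standard error 0.072) and Itgb7, a leukocyte chain, was higher (0.47, standard error 0.14). Itgb7 was at 71.6 and 127 CPM in the glands of mouse 3 and at 38.6 to 54.7 CPM elsewhere, beside the B cell sums given above, whose part in its value was not tested. Both calls held by DESeq2 and by limma-voom. They ended without the replicate block, and so without the pairing (unadjusted p = 0.0751 for Itga3 and 0.262 for Itgb7, edgeR). That of Itgb7 also ended without mouse 1 (unadjusted p = 0.0504, edgeR) and without mouse 3. The call of Itga3 held in each fit that left out 1 mouse. Of 27 ligand genes, Tgfb3, a TGF-beta ligand, was the one past the thresholds. It was lower, at 112 ± 7.68 CPM with WT epithelium and at 80.7 ± 14.5 CPM in Adamts18-/- glands (SD, n = 3), and its log2 fold change was -0.48, with a standard error of 0.093. Scaled to the epithelial genes, neither Itga3 (-0.024) nor Tgfb3 (-0.094) passed. The ligand genes had a median log2 fold change of -0.052, with 19 negative and 8 positive values (49.8% of all genes were negative). Of 30 genes of the adhesion complex inside the cell, such as talins, kindlins and the kinase Ilk, 0 passed the thresholds. Their median was -0.081, near the median of the members, with 25 negative and 5 positive values (49.8% of all genes were negative). By the same edgeR test and adjustment, 0 of these 73 genes had an adjusted p under 0.05 (0.0% of all genes) and 6 had an unadjusted p under 0.05 (3.86% of all genes). By DESeq2, 12 had an unadjusted p under 0.05 (4.28% of all genes), and 2, Itga3 and Tgfb3, an adjusted p under 0.05 (0.409% of all genes). Simulated data held genes changed by 1 on the log2 scale, more than the fitted changes of Itga3 and Tgfb3. There, 146 of 216 genotype calls of DESeq2 at such an adjusted p were of genes that had been changed. The counts were 121 of 146 for edgeR and 122 of 148 for limma-voom.

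The sign of 8 of the 10 members' values turned with the scaling. When libraries were scaled to the 25 epithelial genes instead of to all genes, the median over all tested genes rose to 0.39 and that of the members to 0.31. Over all genes, 32 were then lower and 1335 higher past the thresholds, against 319 and 203 before. All 10 members then had a positive log2 fold change, between 0.17 for Itga9 and 0.57 for Itgb6, and 0 passed the thresholds.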

How the data were processed

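RNA-seq of 6 contralateral glands from 3 host mice was deposited by the authors as one table of raw read counts per gene symbol, without normalization. The submitters' processing notes name bcl2fastq 2.18, TopHat2 2.0.11, featureCounts 1.6.2, edgeR and the genome build mm9. A strand setting is not given in the sources used here. Exon lengths and gene positions were taken from GENCODE M21 (GRCm38), not mm9, and promoters from RefSeq. Of 34590 symbols, 29241 matched that annotation by name.

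Counts were filtered with filterByExpr, scaled by TMM and fitted in edgeR 4.0.16 (R 4.3.3) with genotype and host mouse as terms, since the glands of a number come from one animal. Across genes, contralateral glands deviated together (r = 0.512, 0.505 and 0.639 for mice 1, 2 and 3). Calls needed a fold change below 0.8, or above its reciprocal, together with an unadjusted p under 0.05. p-values were adjusted by Benjamini-Hochberg over all 17345 genes tested. log2 CPM used a prior count of 2. No 2 libraries agreed within counting noise. DESeq2 1.42.0 and limma 3.58.1 (voom), other scalings and filters, no block, and the omission of each mouse were alternatives. The fits were tested on simulated data. All members are described. Named besides them are the 3 genes with the nearest profile (root mean square difference of centred log2 CPM) for the 4 members of widest range, and genes of the adhesion lists past the thresholds. The members and lists were chosen with earlier results of these data known.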

Additional observations from a re-analysis of the deposited data

How the results depend on the processing

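Over 12 alternatives, 106 of 120 fitted values of the members kept their sign and their side of the thresholds. Without the replicate block, 0 members passed the thresholds and 2 genes of the adhesion lists did, against 3 with it; the pairing changed no call of a member. By DESeq2, 2 members differed between mice at an adjusted p under 0.05 (Itga1 and Itga7; 19.1% of all genes), and 6 genes of the adhesion lists passed. With library size alone, 2 members had an unadjusted p under 0.05 (4.27% of all genes). Scaling to the epithelial genes gave a members' median of 0.31, with 5 genes of the adhesion lists past the thresholds, and turned the log2 fold changes of Itga1 (0.39), Itga2 (0.35), Itga7 (0.22), Itga8 (0.20), Itga9 (0.17), Itgav (0.27), Itgb1 (0.34) and Itgb5 (0.27) positive, the median of all genes rising alike. Leaving out each mouse gave 0 to 1 members past the thresholds or at an unadjusted p under 0.05, 4 to 7 genes of the adhesion lists and 2 to 2 of 6 subunit ratios of one direction (fewer mice must meet it). These fits, without 1 mouse each, spanned -0.13 to 0.13 for Itga1 (positive without mouse 1), -0.14 to 0.072 for Itga2 and -0.30 to 0.45 for Itga5 (turned without mouse 2), -0.19 to 0.022 for Itgb5 (turned without mouse 3) and -0.15 to 0.54 for Itgb6 (negative without mouse 1), and Itga7 passed without mouse 2 (-0.36). The cause was not tested. By median transcript length, 5 of 10 members kept their place in the order of levels. With 3 mice the intervals of Itga5 and Itgb6 allow nearly 2-fold differences, and Itgb6 rests on few reads.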

Other observations

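Itgb1bp2 encodes melusin, a muscle protein that binds the tail of the Itgb1 product, and was singled out after its values were seen. It was at 0.659, 1.26 and 2.52 CPM in the WT glands and at 10.1, 10.7 and 2.21 CPM in the Adamts18-/- glands of mice 1, 2 and 3. The 15 skeletal muscle genes were likewise highest in the Adamts18-/- glands of mice 1 and 2, at 14793 and 15102 CPM, and their part in these values was not tested. Itgb1 itself was at 477 and 505 CPM in those glands and at 490.2 and 505 CPM in the contralateral WT glands.

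Some leukocyte integrin chains, named after their values were seen, were highest in the glands of mouse 3, where T cell genes (8) summed to 197 CPM in the WT and 540.1 CPM in the Adamts18-/- gland, against at most 77.3 CPM elsewhere. Itgal was at 11.5 and 25.1 CPM per kilobase in these glands and at 2.67 to 4.18 in the others. Itga4 was at 6.45 and 10.9 in them and at 3.08 to 3.55 in the others. Itgam, a chain of myeloid cells, was instead highest in mouse 1, at 15.9 and 16.5, and at 12.7 and 13.1 in mouse 3. The part of these cells in the values was not tested.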
